A study of Homo sapiens with 9 samples.

Results

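The sites described here are the p65 peaks of 786-O cells that were called under either of 2 treatments: 1813 peaks in the list labelled siTEAD4 and 1649 in that labelled XMU-MP-1, together 3462 of the 60345 peaks in the 5 deposited lists. They are called residual because both lists were short beside the p65 lists of the control cells (15465 peaks) and the vehicle cells (17958 peaks). Peaks of the 2 treated lists that shared at least 1 bp were joined. This gave 2265 separate regions, of which 1191 were in both lists (common regions), 617 in the siTEAD4 list only and 457 in the XMU-MP-1 list only. No measured value was used to choose them beyond the authors' calling of the peaks.

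786-O is an established human clear cell renal carcinoma line, and every sample is from it. Chromatin was immunoprecipitated for p65 (RELA) from control cells, which carry no treatment label, from cells whose title reads siTEAD4 and whose treatment label reads siTEAD, from vehicle cells and from cells treated with XMU-MP-1, a small molecule that blocks MST1 and MST2, kinases of the Hippo pathway. TEAD was immunoprecipitated from XMU-MP-1 cells, and which TEAD protein the antibody sees is not given in the labels. Dose, duration and siRNA sequence are not given in the labels, and the peak lists hold no expression values with which the loss of TEAD4 or the identity of the cells could be checked. The peak identifiers in the list labelled siTEAD4 read p65_Vert, a name found in no label used here, so every statement about siTEAD4 rests on the sample label. Each condition has 1 library and the depth of the libraries is unknown, so what follows describes these 5 lists, with no p-value and no replicate check.

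NF-κB is a family of dimeric transcription factors held in the cytoplasm by IκB proteins. When a signal such as TNF leads to the breakdown of IκB, p65 enters the nucleus and binds short κB sequences near genes of inflammation, cell survival and its own inhibition, and the genes for IκBα (NFKBIA), the ubiquitin editor TNFAIP3 and their relatives close a feedback loop. TEAD proteins bind DNA for the coactivators YAP and TAZ. The kinases MST1 and MST2, acting through LATS1 and LATS2, keep YAP out of the nucleus. By this account an inhibitor of MST1 and MST2 would leave more YAP in the nucleus. A loss of TEAD4 would instead remove a protein that binds DNA for YAP. The treatments thus act on the same pathway at different steps and in opposite directions, and neither effect was measured here.

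Gene names beside regions need gene positions on hg19, the build of the lists, and no hg19 annotation was used here. The positions of 105 genes in 9 lists were entered by hand from general knowledge and checked against RefSeq for GRCh38.p14. Chromosomes matched for all 105, and 103 had a length within 15% of the RefSeq length and were used. Of the 120 genes used in all, 17 of them added later, 118 had another gene used on the same chromosome. For 87 of these 118 the shift between the hg19 entry and the GRCh38.p14 position was shared to within 1 kb by such a gene. For the others of the 118 no gene used on the chromosome shared it. Shifts between builds change along a chromosome, so this leaves those positions without support and does not show them to be wrong. Among the genes named below they are TNIP1, TNIP2, NFKB1, TRAF2, BCL2L1, XIAP, MCL1, CCL2, CSF1, CSF2, IL11, IL32, SELE, AXL, ARHGEF17, NT5E, ASAP1, LHX1, CCND1, STAT3, FOXA2, PGK1, SPIDR, AJAP1 and ECE1. IFNGR2, also named below, had no other gene used on its chromosome, so its position was not checked in this way. Any statement that a region lies at, in or near a gene rests on the entries made by hand.

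Promoters are shown for 6 genes whose start lay in a residual region, 3 in common regions, 1 in a region of the siTEAD4 list only and 2 in regions of the XMU-MP-1 list only, because the letters let a reader see the κB sequences that p65 binds. Each is the 250 bases before the RefSeq start on GRCh38.p14, matched to the region by gene name and not by coordinate, 5′ to 3′ in the direction of transcription. Capitals mark every match, on either strand, to a κB pattern of 9 letters: GGGNNTTCC, GGGNNTCCC, GGANNTTCC or GGANNTCCC. NFKBIA lies at chr14:35404750-35404999 (- strand), BIRC3 at chr11:102317234-102317483 (+ strand), CXCL8 at chr4:73740319-73740568 (+ strand), IL6 at chr7:22726950-22727199 (+ strand), REL at chr2:60881324-60881573 (+ strand) and CXCL1 at chr4:73869143-73869392 (+ strand), all in GRCh38.p14.
NFKBIA: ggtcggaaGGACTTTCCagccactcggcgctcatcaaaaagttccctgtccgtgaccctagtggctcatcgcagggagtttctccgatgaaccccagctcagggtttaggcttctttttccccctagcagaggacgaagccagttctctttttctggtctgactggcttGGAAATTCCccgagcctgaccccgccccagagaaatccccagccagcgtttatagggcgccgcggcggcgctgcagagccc
BIRC3: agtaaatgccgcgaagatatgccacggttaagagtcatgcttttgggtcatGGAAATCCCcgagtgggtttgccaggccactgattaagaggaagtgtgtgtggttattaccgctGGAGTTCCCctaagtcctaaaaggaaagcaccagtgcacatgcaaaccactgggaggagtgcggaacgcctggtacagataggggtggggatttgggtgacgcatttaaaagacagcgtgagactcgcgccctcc
CXCL8: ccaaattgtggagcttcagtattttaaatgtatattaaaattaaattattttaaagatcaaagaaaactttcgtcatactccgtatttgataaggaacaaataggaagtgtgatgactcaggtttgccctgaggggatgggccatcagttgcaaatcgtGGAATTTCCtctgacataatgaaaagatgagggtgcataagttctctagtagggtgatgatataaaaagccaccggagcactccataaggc
IL6: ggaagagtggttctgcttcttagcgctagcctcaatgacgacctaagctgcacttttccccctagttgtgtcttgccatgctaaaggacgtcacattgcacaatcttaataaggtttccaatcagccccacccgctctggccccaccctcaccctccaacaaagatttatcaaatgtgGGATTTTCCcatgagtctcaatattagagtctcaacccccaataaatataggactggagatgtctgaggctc
REL: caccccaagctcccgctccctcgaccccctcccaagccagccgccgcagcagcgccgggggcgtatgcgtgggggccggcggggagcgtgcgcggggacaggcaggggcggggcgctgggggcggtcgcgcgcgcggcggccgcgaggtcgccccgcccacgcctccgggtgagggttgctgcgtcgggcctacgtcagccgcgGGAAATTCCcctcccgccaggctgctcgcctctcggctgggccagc
CXCL1: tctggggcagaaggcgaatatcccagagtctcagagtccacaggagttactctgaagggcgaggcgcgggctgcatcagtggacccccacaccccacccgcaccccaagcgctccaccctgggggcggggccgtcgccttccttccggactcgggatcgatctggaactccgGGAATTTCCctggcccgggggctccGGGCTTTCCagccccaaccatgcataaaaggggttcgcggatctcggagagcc

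In NFKBIA the matches began 242 and 81 bases before the start, and in BIRC3 199 and 135 bases before it. CXCL8 had 1 match, 91 bases before the start, and IL6 had 1, at 72 bases. REL had 1 match, at 46 bases, and CXCL1 had 2, at 78 and 53 bases. Promoters of the same start, within 1 kb of the outer end of the gene, were in the RefSeq table for 12 of the 15 genes whose start lay in a residual region, and 11 of these 12 held a match, against 17.3% of 35116 promoters of the same length. By kind of region, 8 of 8 promoters of the common class held a match, 1 of 2 in the siTEAD4-only class (IL6, not NFKBIB) and 2 of 2 in the XMU-MP-1-only class. The RefSeq promoter of TNIP1 belonged to another start, 22.6 kb inside the gene, held no match, and was left out after its letters had been seen. Of 25 genes of the NF-κB lists with no residual region at the start, 9 (36%) held one. The TEAD pattern GGAATG, on either strand, was in 1 of the 12 promoters and in 11.9% of all promoters, and the AP-1 pattern TGANTCA in 1 of the 12 and in 6.57% of all. A match is a run of letters and not a measured site.

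The larger part of each treated list was common. Of the 1813 siTEAD4 peaks, 1196 (66%, 95% Wilson interval 63.8 to 68.1) overlapped an XMU-MP-1 peak, and of the 1649 XMU-MP-1 peaks, 1192 (72.3%, 70.1 to 74.4) overlapped a siTEAD4 peak. Seen over the 2265 regions, 52.6% were common, 27.2% were in the siTEAD4 list only and 20.2% in the XMU-MP-1 list only. In 1185 of the 1191 common regions 1 peak met 1 peak, and in 6 more than 2 peaks met. The number of peaks that meet is nearly the same seen from either list, so the gap between the 2 shares follows from the lengths of the lists. Intervals on shares reflect only how many peaks were counted and take each peak as independent.

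The rule of overlap limits how far apart the summits of joined peaks can lie, so the distances describe only peaks that met it. Summits of overlapping peaks lay a median of 33 bp apart over 1197 pairs. In 65.2% of the pairs (62.4 to 67.8) they were within 50 bp. Control and vehicle peaks that overlapped had a median summit distance of 31 bp and 69.6% (68.8 to 70.4) within 50 bp. The rule of 1 bp had few close calls: the shortest overlap was 27 bp, at 10:79266416-79266442 (folds 4.57 and 3.595), and the 5 nearest misses were gaps of 1, 7, 7, 10 and 37 bp. The pair that missed by 1 bp lay inside ASB2, at 14:94431715-94431970 in the XMU-MP-1 list (fold 5.55) and 14:94431972-94432231 in the siTEAD4 list (fold 3.79). Apart from such pairs, single-list peaks were mostly far from the other list: 4.54% of the siTEAD4-only peaks and 6.78% of the XMU-MP-1-only peaks lay within 1 kb of a peak of the other list, and the median gap was 244 kb and 126 kb.

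Strength, read as the authors' fold enrichment of a summit over a local background whose input is not stated, differed between common and single-list peaks. The rule for common peaks sees strong peaks more easily, so this is a description of the lists. Common siTEAD4 peaks had a median fold of 6.04 (quartiles 4.71 and 7.93) and single ones 4.64 (3.95 and 5.42). For XMU-MP-1 peaks the medians were 6.62 (5.26 and 8.66) and 5.10 (4.51 and 5.81). Common peaks were also longer, with a median of 325 bp against 224 bp in the siTEAD4 list and 366 bp against 276 bp in the XMU-MP-1 list. Folds belong to their own library, so the levels of the 2 lists are set side by side only and show no change between treatments.

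**Figure D1:**
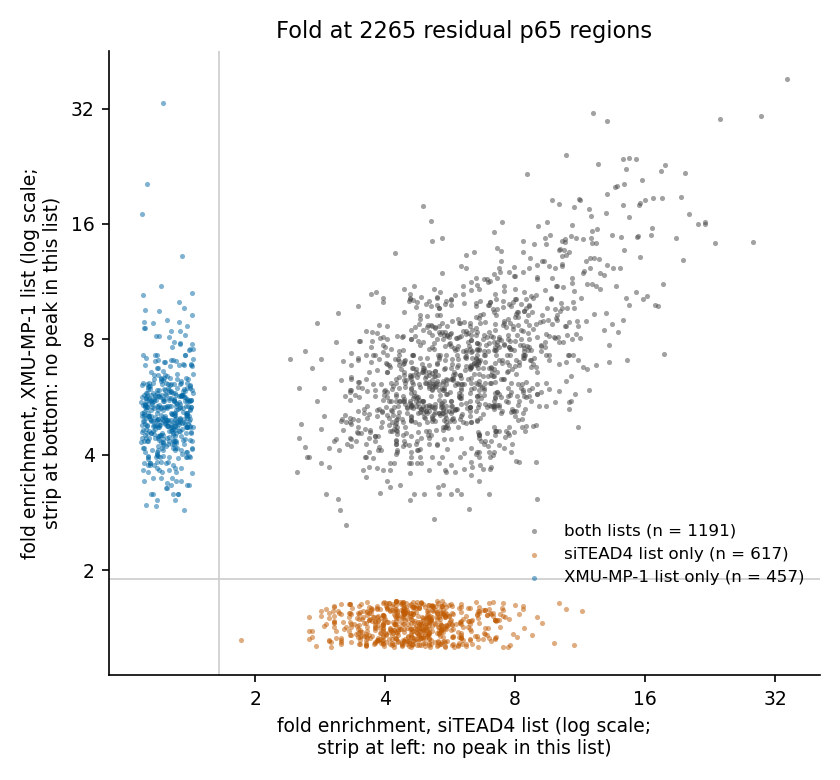
Fold enrichment at the 2265 residual p65 regions on 2 log axes, 1 point a region, with the siTEAD4 list on the horizontal and the XMU-MP-1 list on the vertical axis. Regions called in 1 list only stand in the strips at the left (457 XMU-MP-1-only) and at the bottom (617 siTEAD4-only), with a spread along the strip's width that carries no value. The highest common point is at 34.2 and 38.2, and 1 XMU-MP-1-only region reaches 33.0.

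Fewer of the weaker peaks were common, in both lists. In the strongest decile of the siTEAD4 list 177 of 182 peaks (97.3%) were common, in the fifth 64.6% and in the weakest 47.3%. For XMU-MP-1 peaks the shares were 96.4% (159 of 165) in the strongest decile, 75% in the fifth and 53.9% in the weakest. The tops of the lists differed in 1 respect: the 91 strongest siTEAD4 peaks were all common and the first single one had rank 92, while in the XMU-MP-1 list the peak of rank 2 was already single. Of the strongest 100 peaks, 99 in the siTEAD4 list and 96 in the XMU-MP-1 list were common with some peak of the other list. When the common regions alone were ranked by each list's fold, only 58 were among the strongest 100 in both.

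**Figure D2:**
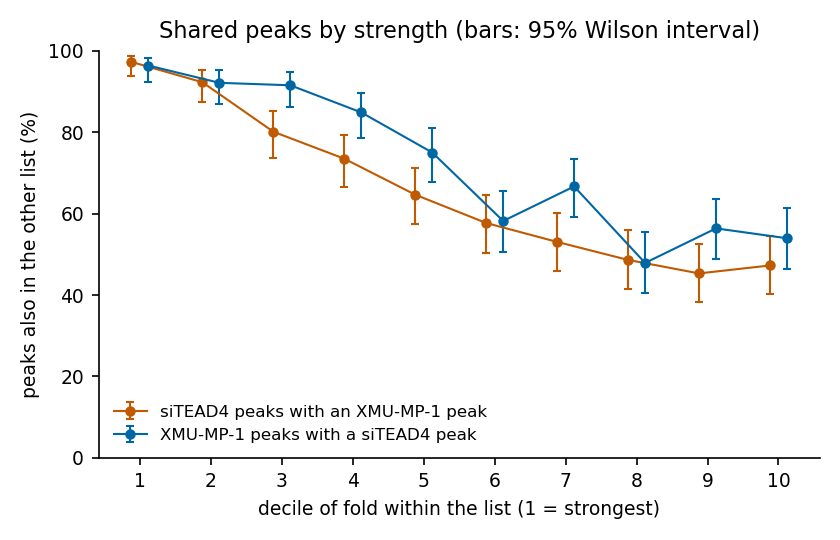
Share of peaks that overlapped a peak of the other treated list, in %, by decile of fold within each list (1 is the strongest), with 95% Wilson intervals as bars. Both curves start above 95% and end near 50%: 97.3% to 47.3% for siTEAD4 peaks and 96.4% to 53.9% for XMU-MP-1 peaks.

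Within the 1191 common regions the order of strength was shared in part. Spearman's rho between the folds of the 2 treated lists was 0.51 and Pearson's r of log2 fold 0.60. At 1169 of the same regions with a peak in both untreated lists, control and vehicle folds had a rho of 0.75. These are correlations across regions that share their libraries and are given as descriptions.

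The strongest common sites, those whose lower rank in the 2 lists was highest, were led by NFKBIA. The region at 14:35872699-35873485, inside NFKBIA, the gene of IκBα that binds p65 and takes it out of the nucleus, had rank 1 in both lists, with a fold of 34.2 in the siTEAD4 list and 38.2 in the XMU-MP-1 list. Its control and vehicle folds were 35.5 and 44.3. A second common region, 14:35873735-35874269, covered the start of NFKBIA itself with low folds of 4.04 and 5.84. In the control list both regions fell in 1 peak.

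The other 9 of these 10 sites were not near genes of the NF-κB lists. They included a region at 1:232980415-232981006 with folds of 29.7 and 30.6 beside none of the genes used here, regions inside CRTAC1 (10:99642158-99642820, 23.8 and 30.1), SPIDR (17.8 and 22.8), CNGB1 (19.4 and 18.8) and ASB2 (16.7 and 18.7), and a region inside FOXA2 (20:22562475-22563791, 15.7 and 20.8), a gene of a forkhead transcription factor. A region over the start of PGK1 (X:77359299-77359851), a glycolytic enzyme gene known as a target of hypoxia-inducible factors, had folds of 19.8 and 21.7 in the treated lists and of 9.64 and 18.2 in control and vehicle. All 10 had a peak in both untreated lists, against 98.2% of all common regions. A TEAD peak lay at 9 of 10, against 76.0% of all common regions, with SPIDR the exception. The names of CRTAC1, SPIDR, PGK1, CNGB1, ASB2, FOXA2 and the other genes outside the 9 lists were looked up after the regions had been chosen by rank.

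The strongest sites of 1 list only had different company in the untreated lists. The 8 strongest siTEAD4-only regions had folds of 8.73 to 11.4. All 8 had a peak in both control and vehicle cells, against 90.6% of all siTEAD4-only regions. Among the 8 were a region inside STAT3 (17:40481029-40481304, fold 8.73), the gene of a transcription factor downstream of IL-6 family cytokines, and one inside TACC2 (10:123961851-123962168, fold 9.82). The strongest, at 12:76099810-76100144, had a fold of 11.4 and control and vehicle folds of 23.3 and 21.4. The 8 strongest XMU-MP-1-only regions had folds of 9.99 to 33.0. Of all XMU-MP-1-only regions 83.2% had a peak in both untreated lists, but only 2 of these 8 did. These 2 lay inside SDK1 (7:3995722-3996070, fold 11.04) and inside IFNGR2 (21:34775430-34775782, fold 10.4), which encodes a chain of the interferon-γ receptor. The 4 strongest, at 6:25129494-25130017 (33.0), 4:183745810-183746213 (20.3), 1:96407189-96407586 (17.04) and 22:50352363-50352733 (13.2), had no peak in any other of the 5 lists. In each set of 8, 3 regions had a TEAD peak, against 63.2% of all siTEAD4-only and 74.4% of all XMU-MP-1-only regions.

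Over all regions, untreated p65 peaks were most frequent at common sites. Both control and vehicle lists had a peak at 98.2% of common regions (97.2 to 98.8), at 90.6% of siTEAD4-only regions (88.0 to 92.7) and at 83.2% of XMU-MP-1-only regions (79.4 to 86.3). No untreated peak was present at 6 common regions (0.504%), 28 siTEAD4-only regions (4.54%) and 40 XMU-MP-1-only regions (8.75%). The siTEAD4-only regions were slightly more often covered by vehicle peaks (94.5%) than by control peaks (91.6%), though control is the reference of that treatment by its label, and the vehicle list is the longer one.

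Untreated strength followed the same order. Median control folds were 13.9 at common, 10.6 at siTEAD4-only and 7.97 at XMU-MP-1-only regions, and median vehicle folds were 15.04, 10.7 and 8.60. When the regions with both untreated peaks were cut into 5 equal classes by their untreated fold, the common share went from 83.2% in the strongest class to 29.6% in the weakest. The XMU-MP-1-only share went from 2.84% to 37.4% over the same classes and the siTEAD4-only share from 13.98% to 32.9%. Of the 422 residual regions in the strongest class, 59 were in the siTEAD4 list only and 12 in the XMU-MP-1 list only.

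**Figure D3:**
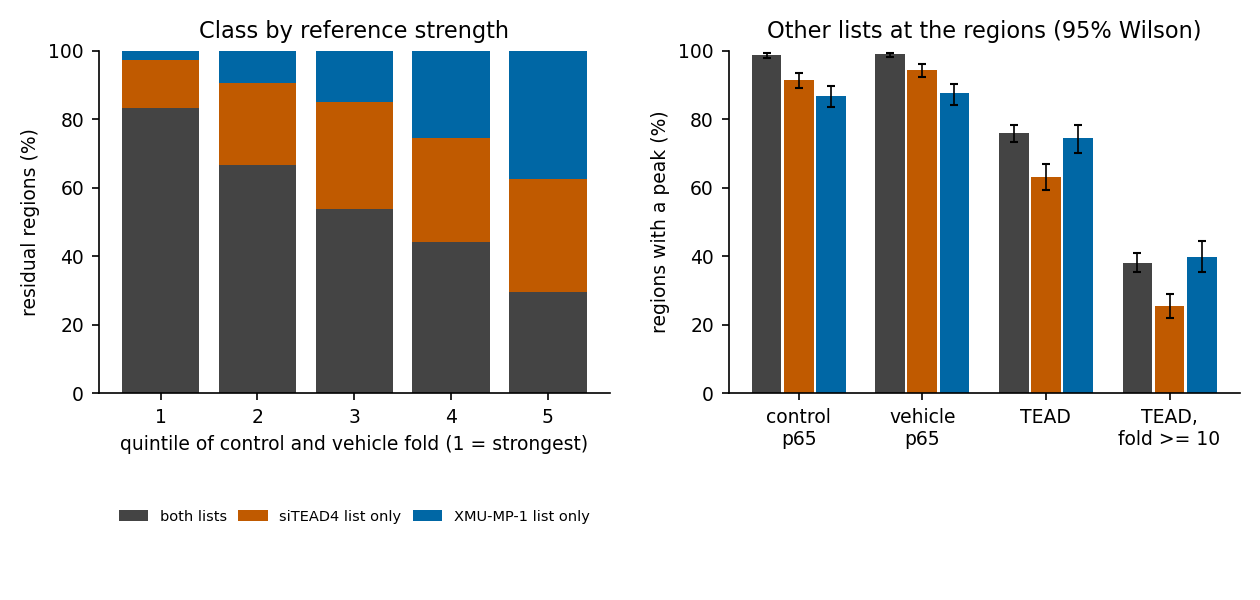
Left, the share of common, siTEAD4-only and XMU-MP-1-only regions, in %, in 5 classes of control and vehicle fold, 1 being the strongest. Right, the share of regions of each kind with a control p65, vehicle p65 or TEAD peak, or with a TEAD peak of fold 10 or more, with 95% Wilson intervals. The common share on the left goes from 83.2% to 29.6%, and on the right the siTEAD4-only bar is the lowest of the 3 for TEAD (63.2%).

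TEAD peaks lay at 72.2% of the 2265 regions, but not equally often in the 3 kinds. The share was 76.0% (73.5 to 78.3) of common regions, 63.2% (59.3 to 66.9) of siTEAD4-only regions and 74.4% (70.2 to 78.2) of XMU-MP-1-only regions. Median region lengths in this order were 407, 224 and 276 bp, and a longer region meets a TEAD peak more easily. The part of length in these shares was not tested. The siTEAD4-only share was 11.2 percentage points below the XMU-MP-1-only share (interval of the difference -16.7 to -5.67), while common and XMU-MP-1-only shares differed by 1.59 points (-3.09 to 6.27). TEAD was profiled only in XMU-MP-1 cells, the cells of the XMU-MP-1 p65 list, so a difference between the treatments and the sharing of 1 treatment by both libraries cannot be told apart.

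The difference had the same sign in all 5 classes of untreated strength, with an interval that held 0 in 3 of them. From the strongest class to the weakest, the siTEAD4-only share minus the XMU-MP-1-only share was -12.6 (-43.2 to 18.1), -24.0 (-40.9 to -7.06), -2.89 (-17.4 to 11.6), -8.82 (-20.1 to 2.45) and -8.84 (-17.3 to -0.391) points. Where neither untreated list had a peak, 13 of 28 siTEAD4-only and 13 of 40 XMU-MP-1-only regions had a TEAD peak, a difference of 13.9 points the other way (-9.56 to 37.4). Where a TEAD peak was present, its median fold was 10.0 at common, 8.44 at siTEAD4-only and 10.5 at XMU-MP-1-only regions. The TEAD summit lay a median of 60, 64 and 62.5 bp from the p65 summit in the same order.

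Of the 103 genes used from the 9 lists, 97 had a control or vehicle p65 peak within 50 kb of the start, and 56 had a residual region there. A common region was present for 40 of the 103 (38.8%), siTEAD4-only regions alone for 9, XMU-MP-1-only regions alone for 5 and single regions of both kinds for 2. Within 10 kb the 2 single-list counts stood the other way, at 5 and 7 genes. Of the 109 regions near these genes 60.6% were common, against 52.6% of all regions. A start lay inside a residual region for 15 genes: 10 in common regions, NFKBIB, NFKBIE and IL6 in siTEAD4-only regions, and REL and CXCL1 in XMU-MP-1-only regions. These are counts on lists that were picked for this system, and the genes are not independent where they share a region.

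Of the inhibitors of NF-κB, 10 of 11 genes had a residual region and 6 of 11 a common one. Over all 103 genes used the counts were 56 and 40. TNFAIP3, whose product edits ubiquitin chains on upstream signalling proteins, had a common region over its start (6:138188054-138188594) with folds of 14.2 and 17.9, against 27.7 in control and 37.3 in vehicle cells. CYLD, a deubiquitinase, had one over its start as well (16:50775744-50776100, 8.56 and 8.34). The inhibitors IκBβ and IκBε differed between the lists at their starts: NFKBIB (19:39390247-39390710, fold 5.71) and NFKBIE (6:44233310-44233551, fold 7.90) were in the siTEAD4 list only, at control folds of 17.7 and 20.8. NFKBIE also had a common region inside the gene with folds of 3.46 and 7.07. TNIP2 was the 1 inhibitor gene with an XMU-MP-1-only region alone (fold 5.28), and NFKBID had none.

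TNIP1, which encodes a ubiquitin-binding partner of TNFAIP3, had 9 residual regions over 35.0 kb of chromosome 5, of which 8 were common. The region over the start (5:150473066-150474428) was 1363 bp long and had folds of 7.27 in the siTEAD4 and 13.8 in the XMU-MP-1 list. The others had folds of 2.71 to 8.94 in the siTEAD4 list and of 4.34 to 8.83 in the XMU-MP-1 list. The order within the gene was not the same in the 2 lists: the region 25.951 kb along had 6.67 in the siTEAD4 and 4.34 in the XMU-MP-1 list, and the last, 34.072 kb along, had 2.71 and 6.75.

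**Figure D4:**
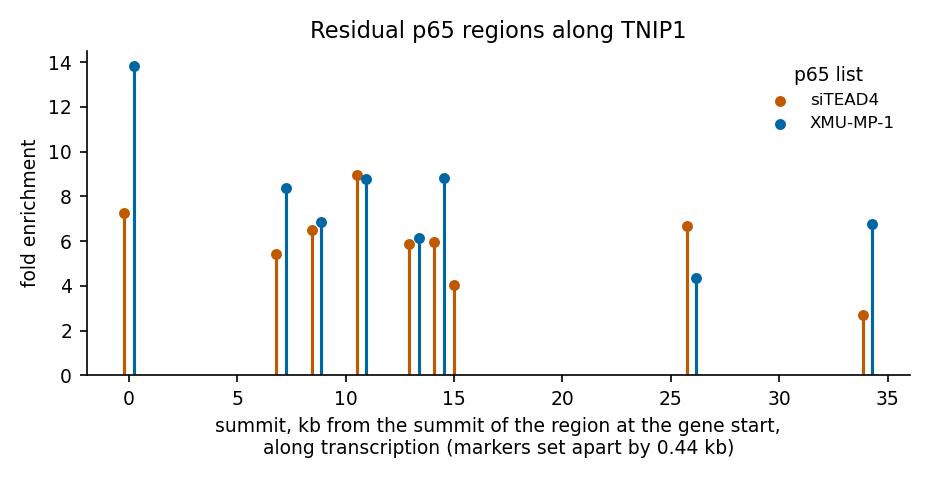
Fold enrichment (vertical axis) of the 9 residual regions along TNIP1 in the siTEAD4 and XMU-MP-1 lists, against the distance in kb from the summit of the region at the gene start along the direction of transcription. The XMU-MP-1 fold is the higher of the pair at the gene start (13.8 against 7.27), and the siTEAD4 fold is the higher at 25.951 kb.

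The genes of the NF-κB subunits split between the classes. NFKB2, the gene of p100 and p52, had the strongest region (10:104153868-104154822) with folds of 23.3 (rank 5) in the siTEAD4 list and 14.2 (rank 75) in the XMU-MP-1 list. A second common region in the same control peak had 6.57 and 5.34. NFKB1, the gene of p105 and p50, had a common region over its start (4:103422289-103422610, 8.51 and 7.69). REL had an XMU-MP-1-only region over its start (2:61108513-61108792, fold 5.23), and RELB had one just before its start (19:45504413-45504645, fold 6.45, with folds of 28.5 in control and 22.6 in vehicle cells). RELA, the gene of p65 itself, had no residual region within 50 kb, with 4 control and 3 vehicle peaks there.

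In survival signalling 5 of 10 genes had a residual region, against 56 of the 103 genes used in all. All 5 had a common one, against 40 of 103. The region over the start of BIRC3 (11:102187785-102188334), an inhibitor of apoptosis and ubiquitin ligase of the TNF receptor complex, had folds of 11.8 and 17.5, and 35.5 and 37.3 in control and vehicle cells. It is also counted for the neighbouring BIRC2, as is a second common region at 11:102216627-102217820 (6.88 and 11.5). TRAF1 (5.63 and 8.13) and TRAF2 (7.22 and 10.2), adaptors of TNF receptors, had common regions inside the gene, and BCL2L1 a weak one (3.17 and 4.95). TRAF3, XIAP, CFLAR, BCL2A1 and MCL1 had none.

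Chemokine and cytokine genes had residual regions in 15 of 17 cases and common ones in 11, against 56 and 40 of 103 genes used. The start of CXCL8, a neutrophil chemokine, lay in a common region (4:74605932-74606543) with rank 241 and a fold of 8.51 in the siTEAD4 list, and rank 16 and a fold of 21.7 in the XMU-MP-1 list, beside 14.5 in control and 20.7 in vehicle cells. A second region upstream (4:74591552-74592093) had folds of 8.35 and 14.5. The start of CXCL1 was in the XMU-MP-1 list only (4:74734906-74735151, fold 4.95), and CCL20 had 2 XMU-MP-1-only regions (4.21 and 5.63). A siTEAD4-only region (4:74864322-74864601, fold 7.24) lay outside CXCL3, within 50 kb of its start. Genes beyond the 9 lists were not searched for there, so another gene may be the nearer one. IL6 lay at its start in the siTEAD4 list only (7:22766571-22766942, fold 4.98), with a vehicle fold of 6.96 and no control peak.

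LIF, a cytokine of the IL-6 family, had 9 residual regions within 50 kb of its start, 6 of them common, with folds up to 9.001 in the siTEAD4 and 12.4 in the XMU-MP-1 list and a TEAD peak at all 9. CSF2 had 3 common regions, the strongest (5:131430052-131430833) with folds of 12.8 and 11.8, and CSF1 had 4. Single common regions were shared by IL1A and IL1B (8.35 and 11.996) and by TNF and LTB (6.59 and 9.11). IL32 had 1 over its start (8.63 and 5.71) and CCL2 1 near it (6.59 and 3.43). IL11 and CX3CL1 had none. Over this list 30 of 32 regions had a TEAD peak, and 9 of the 32 were those near LIF. The count was 91 of 109 near all genes used, 18 of 24 near the NF-κB inhibitors and 14 of 18 near the targets of YAP and TEAD. Over all regions the share was 72.2%. Of the adhesion molecules ICAM1 (4.78 and 6.12, at its start) and SELE (8.49 and 6.21) had 1 common region each, without a TEAD peak. The SELE region lay outside the gene, within 50 kb of its start, and VCAM1 and CD44 had no residual region.

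**Figure D5:**
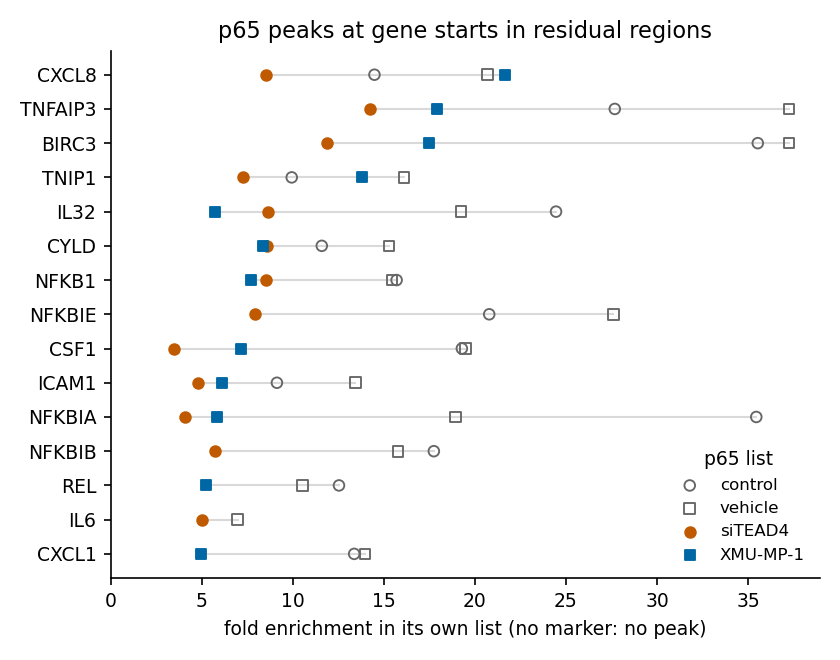
Fold enrichment of p65 at the 15 gene starts that lay in a residual region, 1 gene a row. The lists are control (open circle), vehicle (open square), siTEAD4 (filled circle) and XMU-MP-1 (filled square), each with folds over its own background. A missing marker is a missing peak: NFKBIB, NFKBIE and IL6 have no XMU-MP-1 marker, and REL and CXCL1 have no siTEAD4 marker.

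Of the targets of YAP and TEAD, 10 of 21 genes had a residual region, against 56 of the 103 genes used in all, and 5 had a common one, against 40 of 103. CCN1, a matricellular protein gene often used as a readout of YAP, had 5 regions, of which 3 were common, and all 5 had a TEAD peak. Its strongest (1:86072809-86073360) had folds of 7.53 and 10.7, and a TEAD fold of 64.7. AXL, a receptor tyrosine kinase gene, had 2 common regions and 1 siTEAD4-only region, and the common one at 19:41729473-41729830 had folds of 4.04 and 3.43 with a TEAD fold of 58.9. FJX1 (10.5 and 6.24), GADD45A (5.67 and 10.2) and ARHGEF17 (4.81 and 3.95) had 1 common region each. AJUBA, NT5E and ASAP1 had siTEAD4-only regions, AMOTL2 and TGFB2 single regions of both kinds, and CCN2 and ANKRD1 none. Among the 15 genes of the Hippo pathway and the TEAD family WWC1 alone had residual regions: a common one at 5:167716882-167717207 with a fold of 3.71 (rank 1609) in the siTEAD4 and 10.5 (rank 167) in the XMU-MP-1 list, and 2 siTEAD4-only ones.

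AP-1 genes had residual regions in 5 of 11 cases, against 56 of the 103 genes used. All 5 had a common one, against 40 of 103. A TEAD peak lay at 11 of their 12 regions, against 91 of 109 near all genes used and 72.2% of all regions. Near FOSL1, the gene of FRA-1, 4 of 5 regions were common, the strongest with folds of 9.001 and 11.5. A region near MAFF (22:38614509-38615036) had folds of 10.5 (rank 129) in the siTEAD4 and 24.2 (rank 7) in the XMU-MP-1 list. FOSB had 2 common regions, and JUNB (7.66 and 6.97) and FOSL2 1 each. Of the kidney and hypoxia genes PAX8, a transcription factor of the renal lineage, had a common region inside the gene (2:113998338-113999498, 6.90 and 11.3) and 2 XMU-MP-1-only ones, LHX1 had a weak common region (4.11 and 3.30) and PAX2 a siTEAD4-only one (5.21). EPAS1, HIF1A, VEGFA and CCND1 had none, although each had control and vehicle peaks within 50 kb.

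Some common sites stood at opposite ends of the 2 lists. Among the 5 that ranked highest in the siTEAD4 list relative to the XMU-MP-1 list were a region near CEMIP (15:81068786-81069054, 8.96 and 3.83, ranks 208 and 1555) and one inside PLAAT3 (11:63366524-63366980, 8.17 and 3.83). Among the 5 of the other direction were regions inside AJAP1 (1:4726652-4727310, 3.11 and 9.37) and inside ECE1 (1:21651099-21651528, 2.78 and 8.81), and the WWC1 region named above. In both sets all 5 had control and vehicle peaks and 3 of 5 a TEAD peak, against 98.2% and 76.0% of all common regions. The 5 weakest common sites, by the siTEAD4 fold, had 2.4002 to 2.56 in that list and 3.61 to 7.13 in the XMU-MP-1 list, and all 5 had a TEAD peak. The lowest lay inside SMAD3 (15:67436987-67437362), a signal transducer of TGF-β, and its XMU-MP-1 fold of 7.13 had rank 539. SMAD3 held 9 residual regions in all, 6 of them common.

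Residual regions also formed groups. With gaps of at most 12.5 kb joined, there were 197 pairs and 48 groups of 3 or more, and 28.8% of common (26.3 to 31.4), 19.3% of siTEAD4-only (16.4 to 22.6) and 26.04% of XMU-MP-1-only regions (22.2 to 30.3) belonged to a group. The largest, at 1:228744326-228780518, held 19 regions, 16 of them common. Its common summits followed each other at a median of 2.24 kb (2.14 to 4.49), with folds of 3.80 to 10.1 in the siTEAD4 and 4.17 to 10.8 in the XMU-MP-1 list, and none of the 16 had a TEAD peak. As background, tandem genes of 5S ribosomal RNA lie in this part of the chromosome. In such repeats reads cannot be placed on 1 copy, so the number of regions there is not a number of independent sites. TNIP1 was the next largest group, with 9.

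Common and siTEAD4-only regions lay on every autosome, X and Y, and XMU-MP-1-only regions on all of these but Y. The common share was between 35% (7 of 20 on chromosome 13) and 61.3% (38 of 62 on chromosome 20) on the autosomes and 46.9% on X, and 4 of the 5 regions on Y were common. Chromosome 15 had the lowest share among chromosomes with more than 50 regions, 28 of 76 (36.8%, 26.9 to 48.0), with 28 in the siTEAD4 list only and 20 in the XMU-MP-1 list only.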

How the data were processed

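ChIP-seq was performed on 786-O cells, with 1 library per condition. Per the submitters' processing notes, fastp, Bowtie2 2.4.5 and MACS2 were used with the hg19 genome. The version and settings of MACS2, and the input behind each list, are not stated in the sources used here. The authors deposited 1 peak list per immunoprecipitate, with a fold enrichment (a ratio to the local background), a −log10 p-value, a −log10 q-value, a summit and a score (not used, as it restates the q-value). Peak identifiers carry SPMR, the name of a per-million scaling option of MACS2. The lists give no read totals, so depth is unknown and peaks near the calling threshold are the least certain.

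Peaks were joined by an overlap of at least 1 bp, and an untreated or TEAD peak was assigned to a region by the same overlap, taking the strongest. Deciles were taken by fold within each list, and 5 classes of untreated strength over the regions with both a control and a vehicle peak. Shares carry 95% Wilson intervals and differences normal-approximation intervals. The code (Python 3.11.15, numpy 2.4.6, pandas 2.3.3, scipy 1.17.1) was tested on simulated peaks.

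The sites named were the 10 common sites with the best lower rank, the 8 strongest of each single-list class, the 5 with the largest rank difference in each direction and the 5 weakest, and genes of 9 lists with a residual region within 50 kb of the start. The members and lists were chosen with earlier results of these data known. The plan made gene names conditional on an hg19 annotation. None was used, and gene positions were instead entered from general knowledge. OTUD7B and STK3 were left out because the length entered differed from that in RefSeq by over 15%. Promoters are from RefSeq, GRCh38.p14.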

Additional observations from a re-analysis of the deposited data

How the results depend on the processing

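Of 35 values recomputed under other settings, 24 moved little and 11 by more. Little means a share within its counting interval, a correlation by less than 0.05, or a ratio or count of genes within 1.5 times. Neither the difference in TEAD share nor the rank correlation changed sign. With the TEAD list limited to a −log10 q of at least 10, the share of common siTEAD4 peaks with a TEAD peak was 55.7% in place of 75.9%, and 67.2% when summits had to lie within 200 bp, both stricter by construction. With a fold of at least 5 in both lists, 67.2% of 1068 siTEAD4 and 59.7% of 1205 XMU-MP-1 peaks were common. The order of the 2 shares thus turned, and the XMU-MP-1 list was then the longer one. With the strongest 1000 peaks of each list the shares were 69.8% (siTEAD4) and 69.7% (XMU-MP-1). The higher share in the XMU-MP-1 list was thus not seen at equal list length. The rank correlation over 1197 pairs was 0.65 with −log10 q in place of fold (0.50 with fold), and the cause was not tested. Chosen after seeing the data, a −log10 q of at least 5 in the list counted, with the other list whole, gave 72.0% (siTEAD4) and 78.0% (XMU-MP-1), and of at least 10 gave 87.3% and 92.9%. With a 10 kb window, genes with siTEAD4-only regions alone were 5 in place of 9, those with XMU-MP-1-only regions alone 7 in place of 5 and those with a common region 27 in place of 40, so the order of the 2 single-list counts turned. The siTEAD4-only share with a TEAD peak was below the XMU-MP-1-only share under every setting tried for it, by -9.98 to -14.1 points. Motif shares at summits and shares near any gene start were not run, as no hg19 genome or annotation was used here. No paired analysis was possible because no condition has a second library.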
